A study of Mus musculus with 8 samples.

Results

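In the genes described here, cordycepin changed the signal of a probe nearer the 3′ end and one nearer the 5′ end by different amounts. A gene was a member when the log2 changes of its outermost 3′ and outermost 5′ probe, from serum alone to cordycepin plus serum, differed by at least 1. The rule found 179 members among 2612 eligible genes, or 6.85%, out of 19321 genes with a positioned RefSeq mRNA probe on the array. Eligible genes had 2 or more such probes on one chromosome and strand with outermost starts at least 200 bp apart. In them, both outermost probes were well above background on all arrays of at least 1 group. The 2 outermost probes were listed under the same RefSeq mRNA in 137 of the 179 members (76.5%) and in 80.8% of eligible genes. In the others they were listed under different mRNAs.

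Single-colour microarrays of 60-base probes measured RNA from NIH3T3 cells, an established line of mouse embryonic fibroblasts, labelled as male. All plates were grown in 10% newborn bovine serum, kept in 0.5% serum for 24 h, and then given cordycepin at 20 µM in DMSO or 0.1% DMSO alone. After a further 60 min, serum was added to the plates labelled as serum for 30 min. There were 3 arrays of cells with cordycepin for 90 min and serum (cordycepin plus serum), 3 with DMSO and serum (serum) and 2 with DMSO and no added serum (no serum). No cordycepin without serum was measured, and the labels do not say whether replicates were separate cultures, so p-values measure the spread between these samples, which may be technical. The 75th percentile of the processed signal was 350 to 802 units per array, 51.9 to 57.7% of spots were well above background and no spot was saturated. All 8 arrays lay on 1 slide and were scanned once. The number of arrays limits the precision.

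All 12 fibroblast markers examined were well above background, with a summed relative signal of 1991 to 2619, and none was called changed. Epithelial markers were at the floor, with 2 of 8 measurable and a summed signal of 0.0958 to 0.131, and 3 of 5 endothelial markers summed to 4.92 to 6.93. Of 7 blood cell markers 4 were measurable, while Ptprc and Emr1 were among those that were not, and the sum was 26.9 to 33.8 on the cordycepin arrays, 15.0 to 17.2 on the serum arrays and 13.7 to 18.4 without serum. Of 7 muscle and fat markers 3 were measurable, with sums of 0.324 to 0.468, 0.230 to 0.299 and 0.256 to 0.324 in the same order. Of these, 1 blood marker and 1 muscle or fat marker were called higher with cordycepin, and their part in the results below was not tested.

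Cordycepin, or 3′-deoxyadenosine, lacks the hydroxyl that an RNA chain needs to be extended, and as the triphosphate it is known for stopping poly(A) tail synthesis. The 3′ end of most mRNAs is made by cleavage a short way downstream of the hexamer AATAAA or a close variant, followed by addition of the tail, and many genes hold more than one such site. Probes at different places along a gene can therefore report different transcripts of it, and a summary by gene would mix them. The labels name a Low Input Quick Amp kit, in which labelling starts from the poly(A) end.

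Signals are given as v, the log2 processed signal minus the 75th percentile of log2 signals of its array. The gap is v of the 3′ probe minus v of the 5′ probe on the same array. Because both probes share the array, no choice of a value subtracted per array alters a gap. Only the change of a gap between groups is read here, since the levels of different probes cannot be compared. Members were chosen by the gap change from serum to cordycepin plus serum, so it is given with its standard error (SE) as a description and without a test. A probe is called higher or lower when limma gave an adjusted p under 0.05 and a log2 change of at least 1.

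Most members had the 3′ probe up against the 5′ probe. The 3′ probe changed upward relative to the 5′ probe in 140 genes and downward in 39. In the 140 genes the median gap change was 1.52, made of a median change of 1.24 at the 3′ probe and -0.33 at the 5′ probe. In the 39 genes it was -1.44, with medians of -0.91 at the 3′ probe and 0.20 at the 5′ probe. Over all eligible genes the median gap change was 0.03. Both probes were well above background on all cordycepin and all serum arrays in 124 members, which are called measured below, and 102 of these had the 3′ probe up. A normexp background correction in place of the scanner software's own left 92 members, 72 with the 3′ probe up, and 84 of them were among the 179. Without the filter on dim probes there were 382, 261 with the 3′ probe up.

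**Figure D1:**
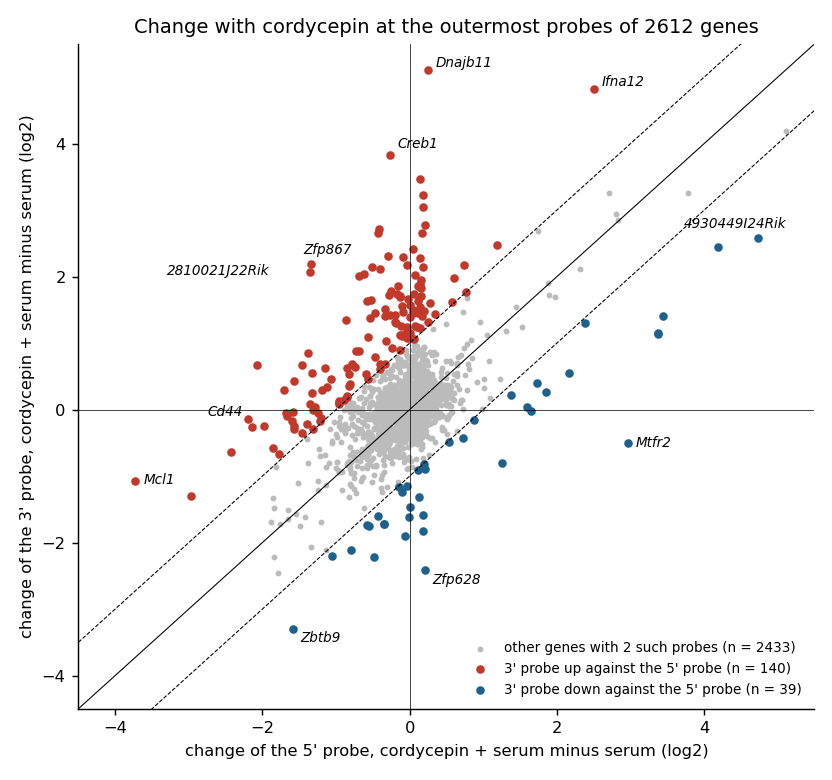
Change in log2 signal from serum to cordycepin plus serum at the outermost 5′ probe (x axis) and the outermost 3′ probe (y axis) of each of the 2612 eligible genes. The solid line marks equal change and the dashed lines a difference of 1, red points are the 140 members with the 3′ probe up, blue points the 39 with it down, and Creb1 and Dnajb11 lie high above the line while Mcl1 lies far to the left.

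A rise at the 3′ probe alone was the commonest form. The 3′ probe was called higher and the 5′ probe was not called in 78 members, with median changes of 1.63 and -0.01. In 30 members the 5′ probe was called lower while the 3′ probe was not, with medians of -1.52 and -0.07. Only 2 members had the 3′ probe called higher and the 5′ probe called lower. Among the genes with the 3′ probe down, 16 had the 3′ probe called lower alone, 6 had the 5′ probe called higher alone, and 6 had both called higher with the 5′ probe further up. In all, 88 of the 179 3′ probes were called higher and 20 lower, where 4.1% and 2.11% of the 3′ probes of eligible genes were. Of the 5′ probes 14 were called higher and 36 lower, where 1.23% and 2.41% were over eligible genes. The rule used this contrast, so these counts describe how the members are made up. Called by the gap itself, 4.9% of eligible genes were higher and 1.19% lower. All of those called were members by construction, since the call and the rule both need a gap change of at least 1.

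Of the measured members, Creb1 had the largest gap change. Creb1 encodes a transcription factor that is phosphorylated after growth factor and cAMP signals. Its 3′ probe (mm9, chr1:64651061-64651120, plus strand) read 0.07, -0.20 and -0.34 with cordycepin, -4.07, -4.00 and -3.90 with serum, and -3.71 and -3.53 without serum. The 5′ probe (chr1:64644633-64644692), 6428 bp upstream with no intron between, read -1.08, -1.14 and -0.77, then -0.90, -0.55 and -0.73, then -0.75 and -0.87. So the 3′ probe stood apart on every cordycepin array, a change of 3.83 ± 0.13 (SE), while the 5′ probe overlapped between the groups at -0.27 ± 0.14. The gap change was 4.10 ± 0.20. The gap on the arrays without serum was -2.95 and -2.65, close to the serum arrays at -3.45 to -3.17 and far from the cordycepin arrays at 0.42 to 1.15.

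The same form was seen in genes of other functions. Arih1, a ubiquitin ligase, had 3′ values of 0.10, -0.03 and -0.22 with cordycepin, -2.62, -2.54 and -2.96 with serum and -2.75 and -2.30 without serum. Its 5′ probe, 4058 bp upstream in the same exon, read -0.39, -0.50 and -0.56 with cordycepin, -0.06, -0.12 and 0.01 with serum and -0.13 and -0.18 without serum. The cordycepin arrays did not overlap the other arrays at either probe, and the gap change was 3.09 ± 0.19. Tsc22d4, of the TSC22 leucine zipper family, had a 3′ change of 3.22 and a 5′ change of 0.19, at probes on different RefSeq mRNAs. Nufip2, an RNA-binding protein that interacts with FMRP, had changes of 2.01 and -0.69. Btg1, an antiproliferative gene, read 0.63, 0.27 and 0.71 at its 3′ probe with cordycepin against -1.44, -2.07 and -1.20 with serum, while its 5′ probe 3287 bp upstream was 5.22, 5.22 and 5.32 against 5.66, 5.60 and 5.71. At Btg1 the probes thus separated the groups in opposite directions, the 5′ probe by only -0.41. Lcmt2, a tRNA-modifying methyltransferase, had its difference at the other probe, with -2.07 at the 5′ probe and 0.68 at the 3′ probe 1113 bp away.

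Both probes moved by at least 1 in opposite directions in 2 measured members, and 72 of the 124 measured members had changes of opposite sign. Zfp867, a zinc finger gene on chromosome 11, read -1.54, -1.78 and -1.76 at its 3′ probe with cordycepin, against -3.50, -4.26 and -3.91 with serum and -2.92 and -2.74 without serum. Its 5′ probe, only 580 bp upstream, read -1.46, -0.72 and -0.83 with cordycepin, against 0.39, 0.10 and 0.51 with serum and 0.44 and 0.30 without serum. The cordycepin arrays were therefore the highest at one probe and the lowest at the other, with a gap change of 3.54 ± 0.27. The other gene was 2810021J22Rik, a gene of unnamed function on the same chromosome, with changes of 2.07 at the 3′ probe and -1.35 at the 5′ probe 4078 bp upstream.

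Sequences of the array probes are shown for genes in which a poly(A) hexamer fell within one of the outermost probes. Such a probe covers a possible signal for cleavage a short way downstream, and the cleavage site itself may lie beyond the probe. Each line is a 30-base stretch of a probe in the sense of the mRNA, with AATAAA or ATTAAA in capitals, and the intervals are those of the whole probe in mm9.
Creb1 3′ probe, chr1:64651061-64651120, plus strand: tgagaaatttcaAATAAAtggaatcataat
2810021J22Rik 3′ probe, chr11:58697746-58697805, plus strand: gggcatgcaggaAATAAActttgtgtaaaa
Zfp867 5′ probe, chr11:59275304-59275363, minus strand: atcagtgtgtagAATAAAgtgtttcagtta
Cstf3 5′ probe, chr2:104449520-104449579, plus strand: ttggagttgcaacaacATTAAAacagtttc
Fam53b 3′ probe, chr7:139903768-139903827, minus strand: ttttactgtgtaAATAAAgcttcctggtcc
Zbtb9 3′ probe, chr17:27113088-27113147, plus strand: tttaaggttgttAATAAActctgccctgaa
Wdr62 3′ probe, chr7:31025159-31025218, minus strand: gatttgtaaaccAATAAActgacagttgtt
The hexamer lay in the 3′ probe of Creb1 and 2810021J22Rik, whose 3′ probes went up, and equally in those of Fam53b and Zbtb9, whose 3′ probes went down against the 5′ probe. In Zfp867 and Cstf3 it lay in a 5′ probe that was lower with cordycepin, and in other named genes it lay in a 5′ probe that was higher, as in Marc1 (3.37), or differed little, as in Krr1 (0.06) and Epc1 (0.18).

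Over all members either hexamer was present in 48 3′ probes (26.8%) and 22 5′ probes (12.3%). The shares over the probes of all eligible genes were 24.8% and 7.27%. A probe that held both hexamers was counted once. The letters of the other strand, TTTATT or TTTAAT, were in 6.15% of the members' 3′ probes and 6.70% of their 5′ probes, against 8.81% and 4.29% over eligible genes. A match is only a run of letters within a 60-base window, and these shares were not tested.

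How far apart the probes lay was part of the rule only through its lower limit of 200 bp. Pairs with no intron between them, taken as those on one mRNA whose distance along the mRNA equals that in the genome within 2 bp, made up 106 of the 179 members (59.2%) and 1103 of the 2612 eligible genes (42.2%). Among these intronless pairs the share of members was 3.60% (8 of 222) at 200 to 500 bp, 5.51% (13 of 236) at 500 to 1000 bp and 9.97% (33 of 331) at 1000 to 2000 bp. It was 14.9% (41 of 275) at 2000 to 5000 bp and 28.2% (11 of 39) at 5000 to 20000 bp. The share thus went up at each step of distance along an exon. Over all pairs it went from 3.61% in the nearest bin to 8.78% at 2000 to 5000 bp and was 6.61% at 20000 bp or more, where no pair was intronless. In 385 genes whose outermost probes were less than 200 bp apart and which otherwise met the rule, 6 (1.56%) differed by at least 1.

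**Figure D2:**
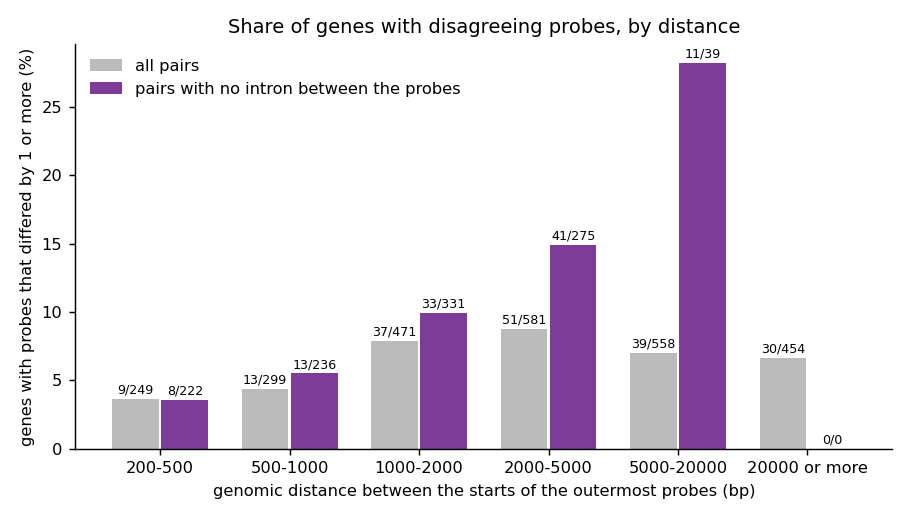
Percentage of eligible genes whose outermost probes differed by at least 1 in their change with cordycepin (y axis) in 6 bins of genomic distance between the probes (x axis), for all pairs in grey and for pairs with no intron between in purple, with members over eligible genes written on each bar. The purple bars climb from 3.60% to 28.2% and the grey bars stay between 3.61% and 8.78%.

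Immediate early genes formed the best-known group among the members. These genes are switched on within minutes of growth factor stimulation without new protein synthesis. Of a list of 51 measurable immediate early genes, read at the brightest mRNA probe of each, 33 were called higher with serum, against 0.849% of all probes, and none lower, against 0.878%. With cordycepin 34 were called lower, against 2.87% of all probes, and none higher, against 7.64%. Centred on the spike-in controls, 17 passed with serum and 30 with cordycepin. Only 9 of the 51 were eligible by the positions and signals of their probes. Of these 9, 5 were members, where 6.85% of all eligible genes were, and this share was not tested. In 4 of the 5, Mcl1, Srf, Ier5 and Homer1, the change with cordycepin was more negative at the 5′ probe, and in Rhob it was more negative at the 3′ probe.

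Mcl1, which encodes a short-lived inhibitor of apoptosis, had the most negative 5′ change of any member. Its 5′ probe (chr3:95465543-95465602) read -0.38, -0.07 and -0.17 with cordycepin, 3.61, 3.49 and 3.49 with serum and 2.44 and 2.46 without serum. The 3′ probe 1312 bp downstream in the same exon (chr3:95466855-95466914) read 4.64, 4.71 and 4.26, then 5.83, 5.54 and 5.44, then 4.87 and 4.88. Both probes were lower on every cordycepin array than on every other array. The 5′ change was -3.74 and the 3′ change -1.07, so that the gap was 2.67 ± 0.17 higher. With serum against no serum, a contrast the rule did not use although the serum arrays entered it, the 5′ probe was 1.08 higher (adjusted p = 0.00531), while the 3′ probe was 0.73 higher (adjusted p = 0.0955).

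Srf, the serum response factor that drives many immediate early promoters, was higher with serum at both probes. The 3′ probe rose by 1.42 (adjusted p = 0.0017) and the 5′ probe by 1.69 (adjusted p = 0.0149). With cordycepin the 3′ probe read 5.04, 4.79 and 4.75, against 5.46, 5.58 and 5.45 with serum and 4.15 and 4.01 without serum. The 5′ probe, 1361 bp upstream, read 1.56, 1.35 and 1.82, against 3.70, 4.51 and 3.80 with serum and 2.30 and 2.34 without serum. At the 3′ probe the cordycepin arrays lay between the serum arrays and those without serum, and at the 5′ probe they lay below both. Ier5, an immediate early response gene, was also higher with serum at both probes. Serum raised its 3′ probe by 1.29 (adjusted p = 0.014) and its 5′ probe by 1.82 (adjusted p = 0.00995), and cordycepin changed them by -0.06 and -1.67. Compared with no serum, cordycepin plus serum differed by 1.23 at the 3′ probe of Ier5 and 0.15 at its 5′ probe. At the 5′ probe of Srf this difference was -0.75. For Ier5 the gap with cordycepin was 0.81, 0.55 and 0.18, against -0.86, -1.41 and -1.04 with serum and -0.49 and -0.64 without serum.

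**Figure D3:**
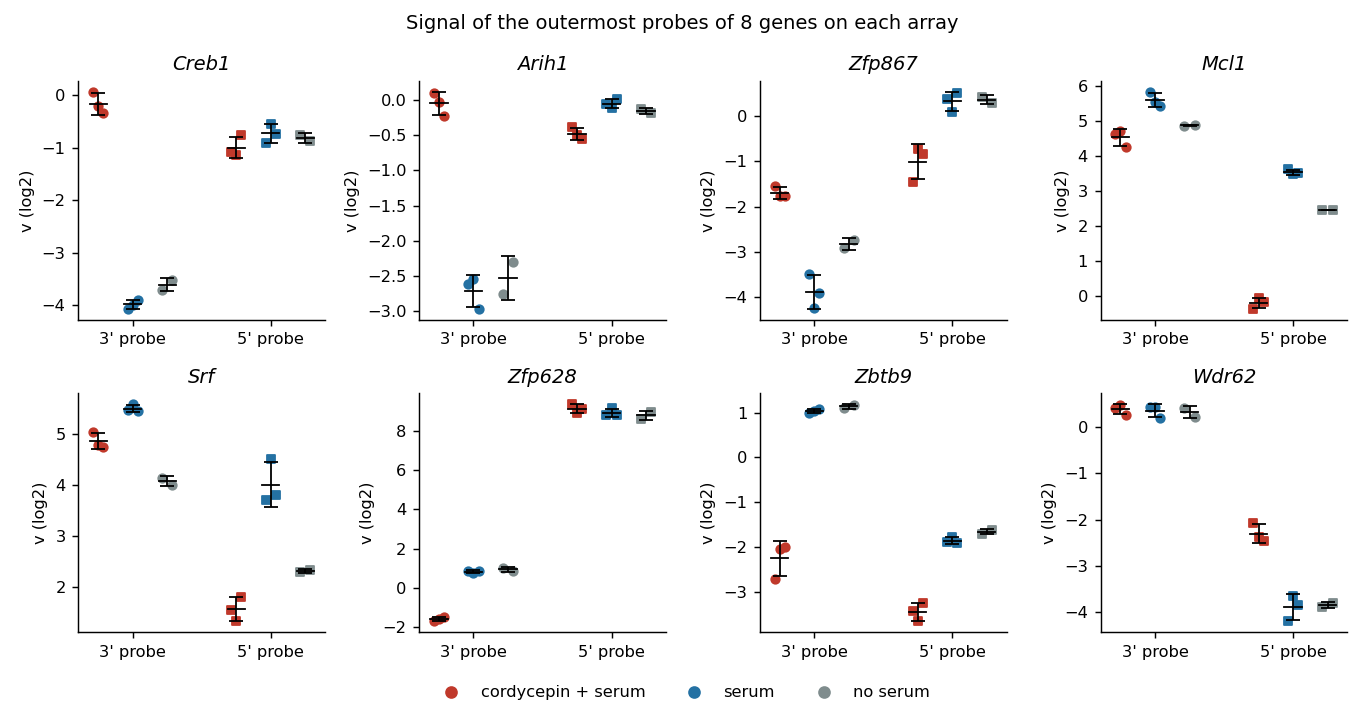
Normalised log2 signal v (y axis) of the outermost 3′ probe (circles) and 5′ probe (squares) of 8 member genes on each array, red for cordycepin plus serum, blue for serum and grey for no serum, with black bars at the mean ± SD (n = 3, 3 and 2). In Creb1 the red circles stand 3.83 above the blue ones while the squares overlap, and in Mcl1 the red squares stand 3.74 below the blue ones.

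Homer1, whose short form is an immediate early transcript ending within an intron of the long form, was the one member on this list whose gap was called lower with serum, beside gap changes of -0.54 for Ier5, -0.35 for Mcl1, -0.27 for Srf and 0.10 for Rhob that were not called. Its 5′ probe rose by 2.00 with serum (adjusted p = 0.00162) and its 3′ probe, 58220 bp downstream and on another RefSeq mRNA, differed by 0.07. The gap was 1.06 and 1.20 without serum, -0.66, -0.89 and -0.86 with serum and 0.48, 0.35 and 0.08 with cordycepin plus serum. The groups did not overlap, and the fall with serum of 1.93 on the log2 scale had an adjusted p of 0.00356. Without no serum replicate 2 that adjusted p was 0.0843. The 3 probes within the first 9414 bp changed by -1.46, -1.23 and -2.21 with cordycepin, against -0.11 and -0.36 at the probes 40912 and 58220 bp away.

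Rhob, a small GTPase, read -1.31, -0.61 and -0.61 at the 3′ probe with cordycepin against 0.93, 0.47 and 1.26 with serum and 0.66 and 0.50 without serum. Its 5′ probe, 1554 bp upstream in the same exon, read -0.58, -0.59 and -0.20 against -0.01, 0.35 and 0.04 with serum and -0.18 and 0.01 without serum. Every cordycepin array lay below every other array at both probes, and the gap change was -1.15 ± 0.30. Neither probe passed the test with serum.

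None of the 2 eligible MAPK phosphatase genes of 10 measured was a member, although 7 of the 10 were called lower with cordycepin at their brightest probe, or 4 with spike-in centring. Of 24 measurable cleavage and polyadenylation factors 1 was called lower with cordycepin and none higher, with a median change of 0.03, where the median over all probes was 0.10. With spike-in centring these medians were -0.02 and 0.04, and with median centring -0.27 and -0.20. Of the 6 eligible genes on that list 2 were members, Cstf3 and Rbbp6, where 6.85% of all eligible genes were. Of 42 U1 snRNP and splicing genes none was called in either direction and none of the 14 eligible ones was a member.

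Cstf3 encodes a subunit of the cleavage stimulation factor and is known for a short transcript that ends in an intron. Its 5′ probe read 1.75, 1.38 and 1.38 with cordycepin, 2.59, 2.72 and 2.59 with serum and 1.00 and 1.38 without serum. The 3′ probe, 55788 bp downstream on another mRNA, read 2.76, 3.03 and 2.74, then 2.61, 2.43 and 2.47, then 2.32 and 2.38. At the 5′ probe the cordycepin arrays lay with or just above those without serum and the serum arrays stood apart above. Serum raised that probe by 1.44 (adjusted p = 0.00515) and the 3′ probe differed by 0.15. The gap change with serum was -1.29 (adjusted p = 0.0734), and that with cordycepin 1.47 ± 0.19. Rbbp6, another factor of the 3′ end machinery, had changes of 0.62 at the 3′ probe and -1.15 at the 5′ probe with cordycepin. With serum they were 0.20 and 0.05, and these probes too were on different mRNAs.

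Serum alone seldom moved the probes of members apart. With serum, 4 members' 3′ probes rose and 1 fell, where the shares over eligible genes were 0.306% and 0.0383%. Among 5′ probes 8 rose and 1 fell, where the shares were 0.459% and 0.0766%. Because serum arrays are on one side of both contrasts, chance deviations in them enter both. By the gap, Tfap2a was called higher and Homer1 lower, against 0.0766% and 0.115% of eligible genes. The gap change of Tfap2a was 2.70, or 0.85 with normexp, and it and the fall of its 5′ probe are given without a test, since that probe passed the filter on dim probes only through the arrays without serum, where it was high. For 168 of the 179 members neither probe was called. Centring on the spike-in controls, which moved the median of all probes with serum to -0.35, kept 2 of the 14 calls, the 3′ probe of Myoz3 and the 5′ probe of Tfap2a. The Myoz3 probe was well above background on 0 arrays without serum, and the Tfap2a probe on 1 serum array. Each thus passed the filter on dim probes only through groups where it was high, so these 2 calls are not the firmest of the 14. Of the 14 calls 6 held without no serum replicate 1, 7 without no serum replicate 2 and 9 with normexp, and the 5′ probes of Mcl1, Homer1, Cstf3 and Cd44 and the 3′ probe of Srf held in all of these. At the 3′ probe, Dtd2 and A3galt2 also lost their call without serum replicate 1 (adjusted p = 0.0548 and 0.0589), and A3galt2 without serum replicate 2 (adjusted p = 0.0502).

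Cd44, a receptor for hyaluronan, had serum and cordycepin changes at the same end. Its 5′ probe read -3.03, -3.30 and -3.50 with cordycepin, -0.90, -1.15 and -1.21 with serum and -2.57 and -2.69 without serum. Serum raised this probe by 1.55 (adjusted p = 0.00345), and cordycepin plus serum was below even the arrays without serum. The 3′ probe, 26573 bp downstream, differed by -0.14 with cordycepin and 0.22 with serum, with all groups overlapping. A probe 5326 bp from the 5′ one changed by -2.23 with cordycepin and 1.42 with serum (adjusted p = 0.17), and one at 23693 bp by -0.09 and 0.12. Cav2, a caveolin of the plasma membrane, had a rise of 1.16 with serum at the 5′ probe (adjusted p = 0.0122) and a change of -1.32 there with cordycepin. At the 3′ probe, on another mRNA, these changes were 0.25 and -0.30.

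**Figure D4:**
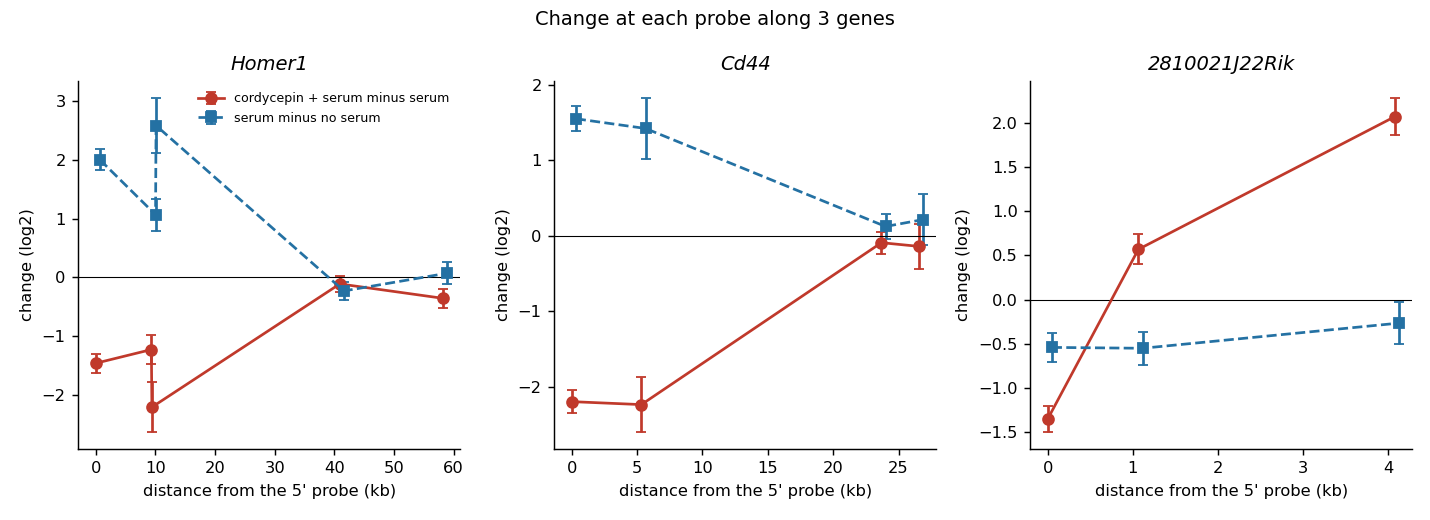
Log2 change at each probe (y axis, ± SE) against its genomic distance from the outermost 5′ probe in kb (x axis) for Homer1, Cd44 and 2810021J22Rik, with cordycepin plus serum minus serum in red and serum minus no serum in blue, drawn slightly to the right of its position. In Homer1 and Cd44 the probes near the 5′ end changed in opposite directions in the 2 comparisons and the distant ones lay near 0, while in 2810021J22Rik the red line runs from -1.35 through 0.57 to 2.07.

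The other serum calls were of different kinds. A3galt2, a galactosyltransferase gene, was 1.71 higher with serum at the 3′ probe (adjusted p = 0.0211). Its 5′ probe had no array well above background without serum. As computed, the 5′ probe was 2.04 higher with serum (adjusted p = 0.0135), a test that uses signals at background. At the bound it was at least 1.98-fold higher, a log2 change of 0.99, below the 1 needed for a call. With normexp the 5′ probe changed by only 0.49 on the log2 scale with serum (adjusted p = 0.692). With cordycepin the 3′ probe of A3galt2 was a further 1.63 higher. Myoz3, known as a sarcomere protein of muscle, read -7.91 and -7.54 at the 3′ probe without serum, where that probe was not well above background, -3.63, -4.64 and -5.22 with serum and -2.20, -2.46 and -2.89 with cordycepin. The 3 groups did not overlap there. As computed, the change with serum was 3.23 (adjusted p = 0.00866), a test that uses signals at background. At the bound the level was at least 2.40-fold higher with serum. With normexp the change was only 0.68 on the log2 scale (adjusted p = 0.145). The 5′ probe of Myoz3 differed by 0.25 with serum. Dtd2 had a fall of 1.23 on the log2 scale at the 3′ probe with serum (adjusted p = 0.018). That probe was well above background on 2 of the 3 serum arrays, and with normexp it changed by -0.30 (adjusted p = 0.733). The 5′ probe of Tfap2a, a transcription factor, read -2.39 and -2.95 without serum, and was well above background on both of those arrays, on 1 of the 3 serum arrays and on no cordycepin array. It passed the filter through the arrays without serum alone, where it was high, so its difference of -2.82 with serum, -0.99 with normexp, is given without a test.

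The signals of the arrays without serum did not enter the gap change that chose the members, but their flags entered the filter on dim probes, and 3 of the members' 3′ probes and 11 of their 5′ probes passed it on those arrays alone. In 163 of the 179 members their mean gap was nearer to the serum arrays than to the cordycepin arrays, as it was in 1780 of the 2612 eligible genes (68.1%). All cordycepin arrays lay beyond all arrays without serum, in the direction that chose the gene, in 164 members, where 30.7% of eligible genes did so in the direction of their own change. Serum and cordycepin arrays did not overlap in 172 members, against 23.6% of eligible genes. Compared with no serum, the gap of 80 members was called higher and of 19 lower, against 3.48% and 0.995% of eligible genes. By single probes, 64 3′ probes were called higher and 17 lower than without serum, against 3.56% and 2.03% over eligible genes, and 15 5′ probes higher and 24 lower, against 1.38% and 1.68%. These counts share the cordycepin arrays with the rule, and those set against the serum arrays share the serum arrays too. The rule put the serum and cordycepin gaps at least 1 apart, which by itself raises such counts among members. In addition, 16 of the members' 3′ probes and 10 of their 5′ probes passed the filter on dim probes through the cordycepin arrays alone. Such a probe was favoured in advance to be called higher than without serum. All of these counts are descriptions. In the 140 genes with the 3′ probe up, the median gap on the arrays without serum was 0.27 and 0.30 above the mean of the serum arrays, while on the cordycepin arrays it was 1.38 to 1.62 above. In the 39 others it was -0.16 and -0.22 without serum and -1.71 to -1.37 with cordycepin.

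**Figure D5:**
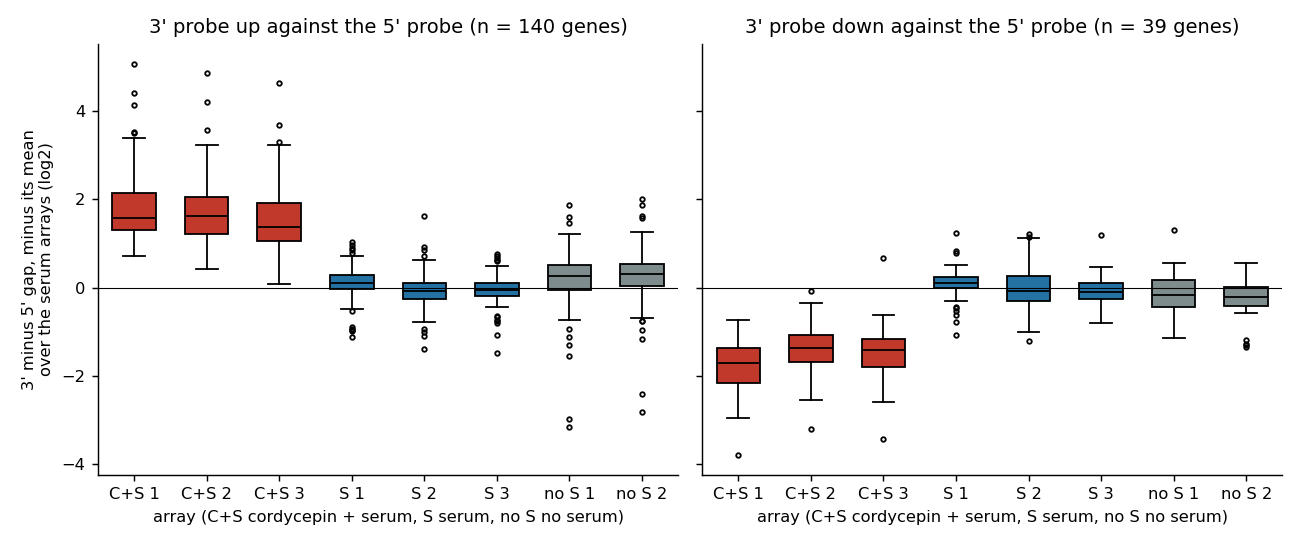
The 3′ minus 5′ gap on each array minus its mean over the serum arrays (y axis, log2) for the 140 members with the 3′ probe up and the 39 with it down, as boxes of the quartiles with the median as a line, whiskers to 1.5 times the box and circles beyond. The boxes of the arrays without serum, with medians of 0.27, 0.30, -0.16 and -0.22, lie near those of the serum arrays, which are centred on 0 by construction.

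The genes with the 3′ probe down against the 5′ probe were fewer. Zfp628, a zinc finger gene, read -1.70, -1.58 and -1.50 at the 3′ probe (chr7:4873434-4873493) with cordycepin, 0.87, 0.74 and 0.86 with serum and 1.04 and 0.85 without serum. Its 5′ probe, 2388 bp upstream in the same exon, read 9.36, 8.91 and 9.13, then 8.80, 9.15 and 8.84, then 8.62 and 8.96. The 3′ probe was lower on every cordycepin array, the 5′ probe overlapped between groups, and the gap change was -2.62 ± 0.22. The stretch of that 5′ probe is shown because of its base composition, which in the whole probe was 86.7% G and C.
Zfp628 5′ probe, chr7:4871046-4871105, plus strand: cgcacccacggccctgcccccggccccgcc

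Zbtb9, of the BTB zinc finger family, was lower at both probes, by -3.30 at the 3′ probe and -1.59 at the 5′ probe 1311 bp upstream. At its 3′ probe the cordycepin arrays read -2.71, -2.04 and -2.00, against 1.00, 1.04 and 1.09 with serum and 1.10 and 1.17 without serum. Zfp169 had changes of -1.90 and -0.06, and Hic2, a BTB zinc finger repressor, -1.46 and 0.00 at probes 2614 bp apart in 1 exon. Epc1, a subunit of the NuA4 histone acetyltransferase complex, had its 3′ probe at -0.07, 0.17 and -0.07 with cordycepin against 1.92, 1.67 and 1.89 with serum and 1.65 and 1.80 without serum, and its 5′ probe differed by 0.18. The outermost probes of Epc1 were on different mRNAs, and a probe between them, 49322 bp from the 5′ one, changed by -1.02. Symbols that begin with Zfp or Zbtb and a number made up 15 of the 179 members (8.38%), 8 with the 3′ probe up and 7 with it down, and 95 of the 2612 eligible genes (3.64%); this class was formed after the members were seen and was not tested.

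In other genes of this direction it was the 5′ probe that was higher. Wdr62, a protein of the spindle pole, read -2.07, -2.38 and -2.45 at the 5′ probe with cordycepin, against -4.20, -3.64 and -3.84 with serum and -3.88 and -3.79 without serum. Its 3′ probe, 40113 bp away, read 0.42, 0.47 and 0.27, then 0.42, 0.43 and 0.19, then 0.41 and 0.23, so it overlapped in all groups. Fam53b had changes of 1.26 at the 5′ probe and -0.81 at the 3′ probe 67052 bp away. Marc1, a mitochondrial reductase, was higher at both, by 3.37 at the 5′ probe and 1.14 at the 3′ probe 455 bp away, and its gap of -3.54, -3.33 and -2.21 with cordycepin lay below that of -1.57, 0.42 and -1.23 with serum, although 1 serum array stood far from the rest. Plagl1, an imprinted zinc finger gene with 4 probes, changed by 0.87 at the 5′ probe, 0.17 at the probe 430 bp on, and -0.11 and -0.16 at those 2121 and 2859 bp on.

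Where more than 2 probes lay on a gene, those between the outermost ones gave a further reading. Of 40 members with 3 or more probes, 37 had at least 1 measurable probe between, 41 probes in all. The change of 24 of the 41 lay between those of the outermost probes, 23 were nearer to the 5′ change and 18 nearer to the 3′ change. Some of these probes overlapped an outermost one, as in Csf1 and Zfp874b, with starts 29 and 37 bp from the 5′ probe. The counts are therefore not all readings from further along a gene. In Zfp874b the 5′ probe changed by 1.72, the probe overlapping it by only 0.34 and the 3′ probe by 0.40.

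Some members had a probe at background in one of the groups, and their gap changes are bounds. In 12 members no serum array, and in 3 no cordycepin array, had the 3′ probe well above background, and for the 5′ probe these numbers were 9 and 5. Dnajb11, a chaperone of the endoplasmic reticulum, had the largest gap change of all as computed, 4.86 ± 0.58, and 3.25 at its bound. Its 3′ probe was well above background on the 3 cordycepin arrays, at -1.75, -1.84 and -2.43, and on no other array. That probe was thus at least 11.3-fold higher with cordycepin, while the 5′ probe, on another mRNA, differed by 0.25. Zfp26 was at least 3.68-fold higher at the 3′ probe, with -0.42 at the 5′ probe 10011 bp upstream in the same exon. The 3′ probe of Csnk2a2, a catalytic subunit of casein kinase 2, was well above background on all cordycepin arrays and on 2 of the 3 serum arrays, with a change of 3.48, and its 5′ probe differed by 0.14. In the other direction, Mtfr2, a mitochondrial fission regulator, was at least 3.11-fold higher at the 5′ probe while the 3′ probe differed by -0.51. Ermap, an erythroblast membrane protein, was at least 4.89-fold higher at its 5′ probe, and 4930449I24Rik at least 9.07-fold. At these bounds 159 of the 179 genes still differed by at least 1. For 4930449I24Rik the gap change at the bound was -0.60, and it was 0.09 with normexp.

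Ifna12, an interferon alpha gene, had changes as computed of 4.82 at the 3′ probe and 2.51 at the 5′ probe 295 bp away. Its 3′ probe passed the filter on dim probes only through the cordycepin arrays, where it was high. The change there is therefore given without a test. Interferon alpha genes are near-identical copies of each other, so which of them its probes read is uncertain. Besides, 2 members had a 3′ probe that the files also list for an mRNA of another gene, and 5 had such a 5′ probe.

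Just inside the threshold were Krr1, of the ribosomal small subunit processome, with changes of 1.06 and 0.06 at the 3′ and 5′ probes, and Agbl3, a carboxypeptidase, with 1.77 and 0.76, both with a gap change of 1.01. Just outside were Zbtb5, with -1.16 and -0.17 and a gap change of -0.98, and Inadl (now Patj), a tight junction scaffold, with 0.52 and -0.45 and a gap change of 0.98. In Agbl3 and in Inadl the outermost probes were on different mRNAs. The SE of the gap change was 0.13 for Krr1, 0.28 for Agbl3, 0.17 for Zbtb5 and 0.23 for Inadl, each larger than its distance from the threshold. Within the first row of arrays on the slide the rule gave 177 genes, 150 of them among the 179, and within the second row 168 genes with 142 shared. The first row held cordycepin replicates 1 and 2 but only serum replicate 1, and the second only cordycepin replicate 3, with serum replicates 2 and 3. These arrays also chose the 179 genes, so the shared genes are not a replication.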

How the data were processed

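Total RNA was labelled with Cy3 and hybridised to Agilent mouse arrays, and the authors extracted signals with Agilent Feature Extraction 10.7.3.1, per the file headers. The deposited values used were the processed signal intensity, the mean and background signal intensity, and the flags. Positions are those of the probes in mm9; gene symbols are those of the files, and all 179 members matched a current symbol in RefSeq (GRCm38.p6).

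Outlier-flagged and control spots were left out, and log2 processed signals were centred on the 75th percentile of each array, spots of a probe being averaged. Tested probes (30857 of 55681) had a share of at least 0.5 of their spots flagged as well above background on all arrays of 1 group or more. limma 3.58.1 (lmFit, eBayes, R 4.3.3) was fitted to all 8 arrays as 3 groups without covariates, over probes and over the gaps of 2612 genes, with Benjamini-Hochberg adjustment. On simulated data with 200 changes of log2 2, the gap fit recovered 197 and made 1 false call for cordycepin, and 189 and 4 for serum. That change was larger than the median gap change of the members in either direction, and the noise was drawn independently for each value. Recovery of changes near the threshold of 1 was not simulated. Where no array of a group had a probe well above background, a bound took, per array, the higher of its own signal and the lowest signal that passed this flag. Members and lists were chosen with earlier results of these data known.

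Named were the 8 measured members with the largest gap change in each direction, those with opposite changes of at least 1, up to 5 members of each gene list, the 2 genes just inside and the 2 just outside the threshold, and the 3 largest unmeasured members in each direction. Btg1, Cd44, Cav2, A3galt2, Myoz3, Dtd2, Tfap2a, Plagl1 and Ifna12 were named after their values were seen. Alternatives were normexp, quantile, spike-in and median centring, filters, distances and thresholds, blocks for replicate number and array row, unadjusted p-values and leaving out each array; array row, and the outermost probes among those well above background, were added after seeing the data.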

Additional observations from a re-analysis of the deposited data

How the results depend on the processing

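With normexp the calls over all probes went from 3242 to 1321 for cordycepin against serum, 533 to 230 for serum and 2922 to 1401 for cordycepin against no serum; among members' probes they went from 158 to 77, 14 to 9 and 120 to 67. The gap was called in 92 in place of 159 genes with cordycepin, and against no serum in 65 in place of 99 members. Spike-in centring gave 2005, 209 and 1440 calls over all probes, and 97, 2 and 56 among members' probes, but left every gap as it was. For serum, no filter on dim probes gave 221 calls, 7 of members, and unadjusted p-values gave 1003. The count of members was 179, 92 with normexp, 382 without the filter and 89 at a threshold of 1.5.

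The 5 gap calls with serum, 2 of members, became 2 and 1 with normexp, quantile normalisation or array row as a block, 3 and 1 where both probes were above background on every array, and 20 and 10 at unadjusted p-values. With the replicate number as a block 1 member was called by this gap, and 13 of the 14 serum calls of members' probes held; same-numbered arrays correlated at -0.17 to 0.23 in their deviations, so the numbers do not pair the samples. Leaving out 1 array at a time gave 166 to 198 members, 265 to 514 serum calls over all probes and 6 to 17 of members' probes. The gap calls with serum were then 0 to 4, with 0 to 2 of members, and against no serum 66 to 126, with 54 to 106 of members. Without 1 array of no serum, the lone array is taken to vary like the other groups. Of 448 recomputed gap changes of 32 named genes, 447 kept their sign, the exception being 4930449I24Rik at 0.0914 with normexp. The causes were not tested, and probes near background limit what can be read from these arrays.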
